A study of Mus musculus with 6 samples.

Results

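The 36 genes described here encode proteins that build peroxisomes or carry out their lipid chemistry: 24 enzymes, transporters and other membrane proteins, and 12 peroxins. They were taken from a list of gene names, which used no threshold on a measured value but was drawn up with earlier results of these data known, and each was found as a single row among the 13273 rows of the liver RNA-seq table. All 36 had a mean of at least 0.5 FPKM (fragments per kilobase of transcript, scaled to the fragments of the library) and entered the test, none was listed at 0 in any liver, and their means ran up to 1009 FPKM for Phyh, with Eci3 the lowest. The comparison asked which transcripts of the liver differ after feeding with ethanol (ETOH). The 3 ETOH-WT mice were fed ETOH in rising steps in a Lieber–DeCarli liquid diet, and the 3 PF-WT mice were pair-fed its isocaloric control. All 6 were wild type C57Bl/6 mice with no transgene, described in the study's methods as females of 2 months at the start, and all first adjusted to the control liquid diet. Livers were taken in the morning at 3 weeks, with 1 library for each mouse, so the livers are separate animals and the values are those of whole liver.

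Peroxisomes are small organelles, abundant in hepatocytes, that shorten very long-chain, branched and dicarboxylic fatty acids and the side chains of bile acid precursors by β-oxidation. Fatty acyl-CoAs enter through ABC transporters, pass through an oxidase, a bifunctional enzyme and a thiolase, and leave as shorter acyl groups bound to carnitine or as free acids. Proteins of the matrix are made in the cytosol, bound by a soluble receptor, and carried across the membrane by the peroxins, which also insert membrane proteins and help the organelle divide. In rodents, fibrates and other ligands of the nuclear receptor PPARα enlarge the peroxisomal compartment of the liver and induce many of its enzymes. Catalase, a peroxisomal enzyme, can also oxidize ethanol as a minor route.

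The largest differences between ETOH-WT and PF-WT livers were in genes that handle carnitine and CoA in the organelle, and they ran in opposite directions. Crot, the carnitine octanoyltransferase that readies shortened acyl groups for export, was 2.16-fold higher in ETOH-WT livers, and Nudt7, a peroxisomal hydrolase of CoA and its esters, fell to 0.277 times its PF-WT mean. Hsd17b4, Acaa1a, Eci2 and Pxmp4 rose by smaller amounts, between 1.33- and 1.37-fold. No peroxin passed the test in either direction. In all, 5 of 36 genes were higher, 1 was lower and 30 were not called at an adjusted p under 0.05, or 16.7% called, where 6.64% of the 11346 genes tested were called (3.97% higher and 2.67% lower). The median log2 fold change of the 36 was 0.06, beside 0.02 over all genes tested, and 20 of the 36 had a positive value.

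Promoter windows of 4 of these genes are printed to show the start regions of the genes with the largest difference in each direction and of the thiolase pair Acaa1a and Acaa1b, of which Acaa1a was called higher and Acaa1b was not called. They come from RefSeq on GRCm38.p6, run 5′ to 3′ on the gene's strand from 250 bases before to 50 bases after the RefSeq start, which need not be the start used for the deposited values. Capitals mark the CCAAT box (CCAAT, or ATTGG for the other strand) and the GC box (GGGCGG, or CCGCCC for the other strand).
Crot, chr5:8997097-8997396, minus strand: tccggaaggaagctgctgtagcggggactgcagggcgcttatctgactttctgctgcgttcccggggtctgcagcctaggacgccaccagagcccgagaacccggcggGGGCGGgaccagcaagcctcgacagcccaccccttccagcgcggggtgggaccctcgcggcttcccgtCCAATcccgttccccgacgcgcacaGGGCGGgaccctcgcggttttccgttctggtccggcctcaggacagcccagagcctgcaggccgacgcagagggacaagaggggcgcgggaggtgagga
Nudt7, chr8:114133324-114133623, plus strand: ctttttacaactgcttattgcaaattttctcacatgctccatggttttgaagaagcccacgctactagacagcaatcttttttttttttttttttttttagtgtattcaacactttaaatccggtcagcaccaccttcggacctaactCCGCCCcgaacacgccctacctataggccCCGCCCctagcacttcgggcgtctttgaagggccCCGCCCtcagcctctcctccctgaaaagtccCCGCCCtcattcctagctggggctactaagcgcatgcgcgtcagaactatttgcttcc
Acaa1a, chr9:119341044-119341343, plus strand: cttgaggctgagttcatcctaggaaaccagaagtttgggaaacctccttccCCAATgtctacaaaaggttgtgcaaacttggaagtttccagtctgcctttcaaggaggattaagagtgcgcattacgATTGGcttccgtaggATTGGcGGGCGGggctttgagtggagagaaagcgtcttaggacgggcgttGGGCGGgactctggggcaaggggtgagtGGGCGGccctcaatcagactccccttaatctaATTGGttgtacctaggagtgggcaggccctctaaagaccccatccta
Acaa1b, chr9:119157044-119157343, minus strand: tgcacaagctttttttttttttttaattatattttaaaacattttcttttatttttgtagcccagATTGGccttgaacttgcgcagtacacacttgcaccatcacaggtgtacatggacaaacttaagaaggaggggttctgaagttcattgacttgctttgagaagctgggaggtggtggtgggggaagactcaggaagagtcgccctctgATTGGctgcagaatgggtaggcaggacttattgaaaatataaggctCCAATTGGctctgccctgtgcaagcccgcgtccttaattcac

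Within these windows, Crot had 1 CCAAT box and 2 GC boxes, and Nudt7 had no CCAAT box and 4 GC boxes. Acaa1a held 4 CCAAT and 3 GC boxes, whereas Acaa1b held 4 CCAAT boxes, 2 of them overlapping on opposite strands, and no GC box. RefSeq windows were matched for 29 of the 36 genes, 5 of the 6 called genes among them. For each of the 29, only the window nearest to the gene's start in the deposited coordinates was used. The comparison shares below counted every listed window of a gene, so the 2 kinds of share were not built alike. A GC box was found in 23 of the 29 (79.3%), against 61.3% of the windows of genes tested and 35.7% of all 32851 windows. A CCAAT box was found in 12 of the 29 (41.4%), against 37.6% of the windows of genes tested and 37.4% of all windows. The sequence AGGTCANAGGTCA, a direct repeat with a spacer of any 1 base (N) of the kind that PPARα and RXR bind, was found in none of the 29 on either strand, and in 0.0265% of the windows of genes tested and 0.0396% of all windows. Its single element AGGTCA, which the repeat contains, was found in the windows of Phyh and Scp2 (6.90% of the 29), against 13.1% of the windows of genes tested and 16.3% of all windows. TATAAA was found in the windows of Pex14, Pex16 and Pex26 (10.3%), against 7.65% of the windows of genes tested and 13.6% of all windows. These matches describe the letters of 300 bases near each start, and sites elsewhere were not searched. Only exact matches were counted. The exact repeat was so rare (3 of 11334 windows of genes tested) that its absence from 29 windows carries no information about these genes.

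Crot and Nudt7 had the largest differences of the 36. Crot (chromosome 5, 8966033 to 8997324, minus strand, GRCm38) measured 307, 416 and 332 FPKM in ETOH-WT livers, against 202, 146 and 142 FPKM in PF-WT livers. The lowest ETOH-WT liver thus lay above the highest PF-WT liver. Crot averaged 352 ± 57.3 FPKM in ETOH-WT and 163 ± 33.9 FPKM in PF-WT livers (SD, n = 3 each), with a log2 fold change of 1.11 ± 0.17 (SE, on the log2(FPKM + 1) scale used for all fold changes below; limma, adjusted p = 0.0117). The call was lost without PF-WT 2 (log2 fold change 1.04, adjusted p = 0.0577).

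Nudt7 (chromosome 8, 114133557 to 114154739, plus strand) measured 66.9, 90.2 and 78.3 FPKM in ETOH-WT livers, against 309, 304 and 236 FPKM in PF-WT livers. No ETOH-WT liver came near the lowest PF-WT liver. The means were 78.5 ± 11.6 FPKM in ETOH-WT and 283 ± 40.8 FPKM in PF-WT livers, and the log2 fold change was -1.84 ± 0.14 (adjusted p = 0.00113), which ranked 12 by p among all 11346 genes tested. Nudt7 stayed called with each liver left out in turn, at an adjusted p of 0.0101 or lower. Nudt19, the other peroxisomal CoA hydrolase of the set, measured 39.5, 46.8 and 37.8 FPKM in ETOH-WT livers, against 37.3, 39.3 and 42.0 FPKM in PF-WT livers, and was not called (log2 fold change 0.06, 95% interval -0.18 to 0.30). Nudt7 therefore made up 62.9%, 65.8% and 67.4% of the summed FPKM of the pair in ETOH-WT livers, against 89.2%, 88.6% and 84.9% in PF-WT livers. Of the exonic sequence of Nudt19, 35.0% overlapped an opposite-strand gene, while Nudt7 overlapped none.

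Crat, the carnitine acetyltransferase of peroxisomes and mitochondria, handles the shortest acyl groups. It measured 46.9, 50.3 and 50.2 FPKM in ETOH-WT livers, against 32.1, 30.4 and 49.1 FPKM in PF-WT livers. PF-WT 3 lay among the ETOH-WT livers, whereas the other two PF-WT livers lay well below them. The log2 fold change was 0.42 ± 0.17 (adjusted p = 0.177), and Crat passed the test without PF-WT 3 (log2 fold change 0.64, adjusted p = 0.0167).

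**Figure D1:**
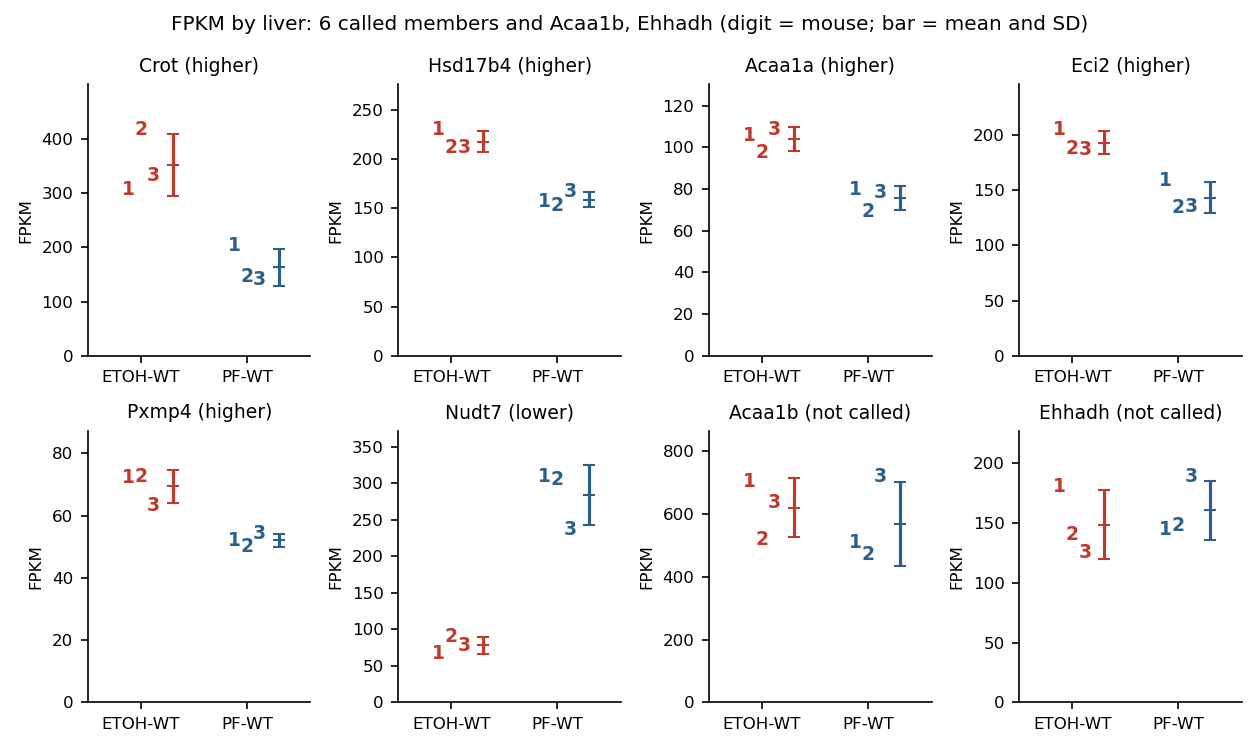
FPKM of 8 genes in each liver, on axes that start at 0. Each digit is a mouse by its replicate number, and each bar gives the mean and SD of a diet (n = 3). The diets did not overlap for the 6 called genes, with Nudt7 lower and the other 5 higher in ETOH-WT, whereas they overlapped for Acaa1b and Ehhadh.

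The core of the β-oxidation spiral was represented by 6 genes, of which Hsd17b4 and Acaa1a rose and the other 4 were not called. Hsd17b4 encodes the D-bifunctional protein, which hydrates and dehydrogenates the enoyl-CoAs of very long-chain and branched substrates. It measured 229, 211 and 212 FPKM in ETOH-WT livers, against 156, 152 and 167 FPKM in PF-WT livers. The livers of each diet lay close together and the diets were well apart, with a log2 fold change of 0.45 ± 0.08 (adjusted p = 0.0227). Hsd17b4 kept its call in 10 of 16 alternative analyses. Ehhadh, the L-bifunctional enzyme and a strongly inducible gene under fibrates in rodents, measured 180.3, 139.9 and 125 FPKM in ETOH-WT livers, against 144, 148 and 189 FPKM in PF-WT livers. Its diets overlapped, with the lowest value in an ETOH-WT and the highest in a PF-WT liver (log2 fold change -0.12, 95% interval -0.48 to 0.25, adjusted p = 0.702). Both genes encode enzymes for the same pair of steps, and the interval of Hsd17b4 (0.26 to 0.65) lay above that of Ehhadh. The difference between the 2 fold changes was not tested.

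Acaa1a and Acaa1b are neighbouring mouse genes for the peroxisomal 3-ketoacyl-CoA thiolase, which cleaves off acetyl-CoA in the last step of each round. Acaa1a (chromosome 9, 119339676 to 119350299, plus strand) measured 106, 97.3 and 108 FPKM in ETOH-WT livers, against 79.9, 69.4 and 78.4 FPKM in PF-WT livers. The diets were separate, with a log2 fold change of 0.45 ± 0.09 (adjusted p = 0.0299). Acaa1a kept its call in 8 of 16 alternative analyses. The more abundant Acaa1b (chromosome 9, 119148023 to 119157093, minus strand) measured 704, 518 and 637 FPKM in ETOH-WT livers, against 510.2, 469.8 and 719 FPKM in PF-WT livers. PF-WT 3 was the highest of the 6 livers for Acaa1b, and the log2 fold change was 0.14 (95% interval -0.28 to 0.56, adjusted p = 0.683). As a share of their summed FPKM, Acaa1a took 13.1%, 15.8% and 14.6% in ETOH-WT livers, against 13.5%, 12.9% and 9.82% in PF-WT livers, so the shares of the diets overlapped. The division of fragments between the pair is uncertain: 16.8% of the 51-base words of Acaa1a exons, mainly those common with Acaa1b, and 39.2% of those of Acaa1b were shared with other genes.

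Acox3, an oxidase for branched-chain substrates, measured 8.05 ± 1.22 FPKM in ETOH-WT and 9.11 ± 0.791 FPKM in PF-WT livers. Scp2, whose longer product is the thiolase for branched chains and bile acid precursors, measured 727 ± 64.3 FPKM in ETOH-WT and 729 ± 21.8 FPKM in PF-WT livers. Neither was called, and the 95% interval of Scp2, -0.24 to 0.23, held both small increases and small decreases. For Scp2, 29.5% of the 51-base words were shared, with the pseudogene Scp2-ps2. The transporters that bring acyl-CoAs in were not called either. Abcd2, for very long-chain acyl-CoAs, measured 22.2 ± 2.25 FPKM in ETOH-WT and 20.6 ± 0.814 FPKM in PF-WT livers. Abcd3, the abundant transporter of dicarboxylic and branched substrates, measured 202 ± 25.3 FPKM in ETOH-WT and 242 ± 49.8 FPKM in PF-WT livers.

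Unsaturated fatty acids need auxiliary enzymes that move or reduce their double bonds. Eci2, an enoyl-CoA isomerase, measured 205, 188 and 187 FPKM in ETOH-WT livers, against 159, 134 and 136 FPKM in PF-WT livers. Every ETOH-WT liver was above every PF-WT liver, with a log2 fold change of 0.43 ± 0.10 (adjusted p = 0.0410). Eci2 kept its call in 6 of 16 alternative analyses. Its close relative Eci3 was scarce, at 2.05, 1.52 and 1.98 FPKM in ETOH-WT livers, against 1.02, 1.78 and 3.65 FPKM in PF-WT livers. PF-WT livers spanned both the lowest and the highest value of Eci3, which was not called (log2 fold change -0.06, adjusted p = 0.914). Eci2 supplied between 97.4% and 99.4% of the summed FPKM of this pair in every liver, and 10.9% of its 51-base words were shared with other genes.

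Ech1, a dienoyl-CoA isomerase, measured 393, 408 and 412 FPKM in ETOH-WT livers, against 310.1, 298 and 344 FPKM in PF-WT livers. The diets did not overlap, yet the log2 fold change of 0.35 ± 0.09 missed the threshold (adjusted p = 0.0626). Decr2, a dienoyl-CoA reductase, was at 163 ± 10.4 FPKM in ETOH-WT and 146 ± 7.47 FPKM in PF-WT livers and was not called. The summed FPKM of the 4 auxiliary enzymes ran from 753 to 772 in ETOH-WT livers, against 577 to 638 in PF-WT livers, so these sums did not overlap.

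Phyh, the phytanoyl-CoA hydroxylase that begins α-oxidation of branched chains, had the highest level of the 36. It measured 1143, 1100.2 and 1187 FPKM in ETOH-WT livers, against 841, 868 and 916 FPKM in PF-WT livers. All ETOH-WT livers were higher, but the log2 fold change of 0.39 ± 0.10 fell just outside the threshold (adjusted p = 0.0538), and Phyh passed it in 4 of 16 alternative analyses. The next enzyme of α-oxidation, the lyase Hacl1, was at 312 ± 66.0 FPKM in ETOH-WT and 355 ± 23.7 FPKM in PF-WT livers. Of the exonic sequence of Hacl1, 33.3% overlapped other genes, including Gm49387 on the same strand, and 30.0% of its 51-base words were shared. Amacr, the racemase for branched acyl-CoAs, was at 69.2 ± 5.58 FPKM in ETOH-WT and 63.3 ± 4.26 FPKM in PF-WT livers, and the enoyl-CoA reductase Pecr was at 185 ± 23.3 FPKM in ETOH-WT and 199 ± 21.2 FPKM in PF-WT livers. None of these 3 was called.

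Pxmp4, an integral protein of the peroxisomal membrane, measured 72.4, 72.6 and 63.2 FPKM in ETOH-WT livers, against 51.9, 50.05 and 54.1 FPKM in PF-WT livers. The diets were separate, with a log2 fold change of 0.41 ± 0.09 (adjusted p = 0.0369), but the call was lost whichever liver was left out (adjusted p between 0.0625 and 0.16). Pxmp2, which forms a channel for small metabolites in mouse peroxisomes, was at 133 ± 3.97 FPKM in ETOH-WT and 145 ± 27.1 FPKM in PF-WT livers and was not called. Gnpat and Agps, which carry out the first steps of ether lipid and plasmalogen synthesis, were not called. Gnpat was at 23.7 ± 2.68 FPKM in ETOH-WT and 20.4 ± 0.996 FPKM in PF-WT livers, and Agps at 2.63 ± 0.504 FPKM in ETOH-WT and 2.66 ± 0.149 FPKM in PF-WT livers.

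**Figure D2:**
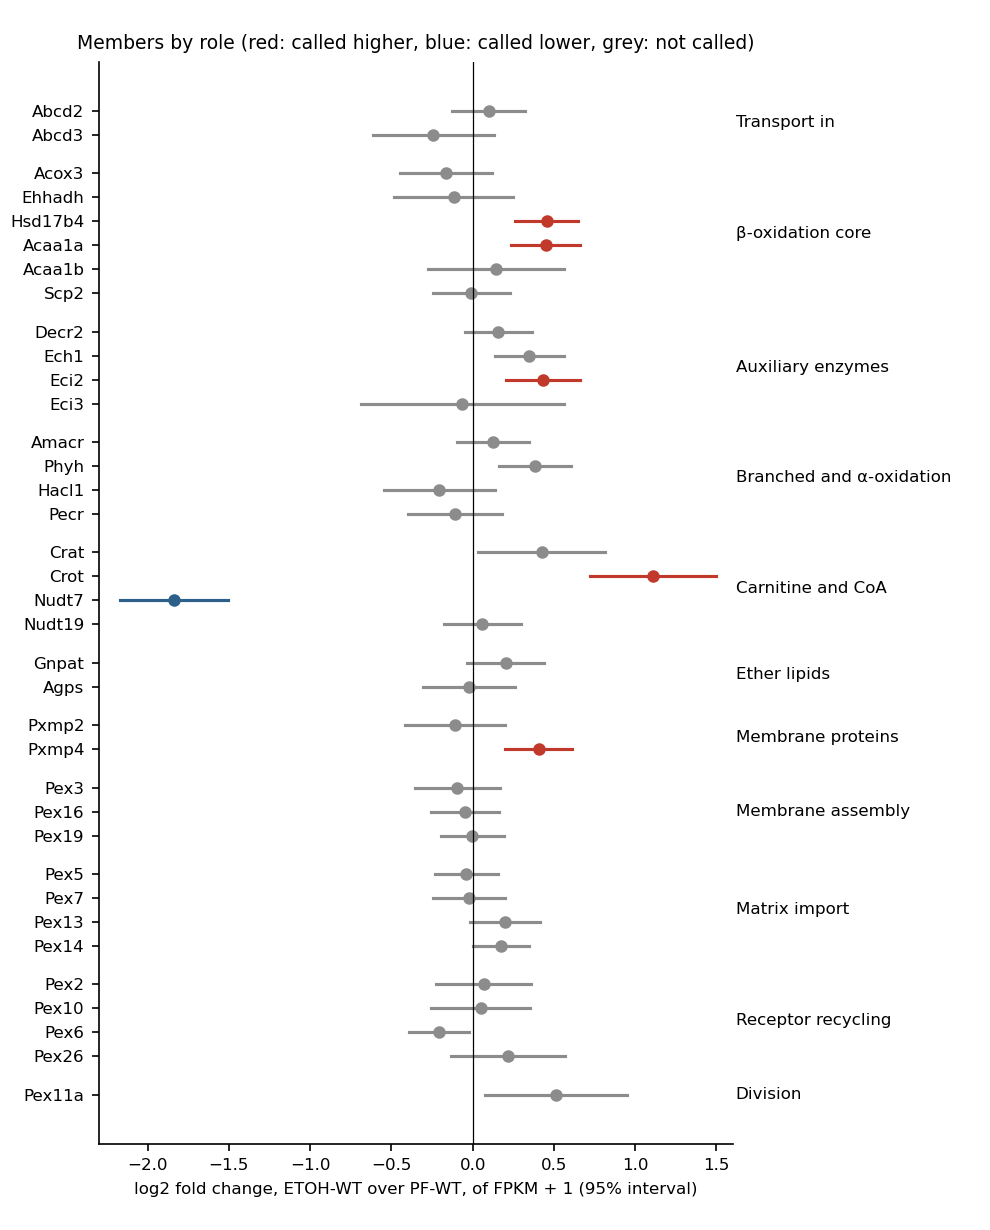
Log2 fold change, ETOH-WT over PF-WT, of log2(FPKM + 1) for the 36 genes, grouped by role, with 95% intervals from limma. The 5 genes called higher are red, Nudt7 is blue and the 30 not called are grey. The peroxins, from Pex3 down, lie between -0.21 and 0.51.

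The 12 peroxins, which carry the biogenesis of the organelle, had log2 fold changes from -0.21 to 0.51 with a median of 0.02, and 6 of the 12 were positive. None was called by limma, and at an unadjusted p under 0.05 there were 1 higher (Pex11a) and 1 lower (Pex6) of the 12, where 23.7% of all genes tested were under that p. With array weights, which give less weight to variable libraries, Pex11a was called (adjusted p = 0.0127), in an analysis that also called 1327 genes higher and 945 lower over the whole table. Their 95% intervals reached from -0.39 to 0.95, so the data leave room for changes of that size in single peroxins. By comparison, 5 of the 24 enzymes and other proteins were higher and 1 was lower (25.0%, beside the 6.64% of all genes). The difference between the peroxins and the rest of the set was not tested.

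Pex11a, which elongates and divides peroxisomes and is inducible by fibrates in rodent liver, had the largest fold change among the peroxins. It measured 72.3, 48.4 and 70.1 FPKM in ETOH-WT livers, against 36.6, 41.4 and 54.6 FPKM in PF-WT livers. ETOH-WT 2 lay below PF-WT 3, so the diets overlapped, and the log2 fold change was 0.51 ± 0.19 (95% interval 0.08 to 0.95, adjusted p = 0.152). Pex6, an ATPase that helps pull the used import receptor out of the membrane, measured 29.8, 27.8 and 30.1 FPKM in ETOH-WT livers, against 34.7, 34.4 and 32.8 FPKM in PF-WT livers. The livers of the diets were separate, with a log2 fold change of -0.21 ± 0.08 (adjusted p = 0.165). Pex14, part of the dock where the loaded receptor binds, measured 36.8, 34.9 and 36.6 FPKM in ETOH-WT livers, against 32.1, 32.2 and 31.3 FPKM in PF-WT livers. Here too the diets were apart by a small step (log2 fold change 0.17 ± 0.08, adjusted p = 0.212), and 28.3% of the exonic sequence of Pex14 overlapped an opposite-strand gene.

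The other dock protein, Pex13, was at 21.3 ± 1.22 FPKM in ETOH-WT and 18.4 ± 1.502 FPKM in PF-WT livers, also without overlap and not called (adjusted p = 0.249). The import receptors overlapped between diets. Pex5, which binds most matrix proteins by a signal at their end, was at 40.7 ± 0.472 FPKM in ETOH-WT and 41.9 ± 3.04 FPKM in PF-WT livers. Pex7, which binds the thiolase and Phyh among others, was at 44.6 ± 1.91 FPKM in ETOH-WT and 45.4 ± 4.78 FPKM in PF-WT livers.

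Pex3, Pex16 and Pex19, which place proteins into the membrane, had log2 fold changes of -0.09, -0.04 and -0.001. Pex19, the soluble chaperone of this group, was at 70.2 ± 0.903 FPKM in ETOH-WT and 70.3 ± 4.78 FPKM in PF-WT livers. Pex2 and Pex10, ubiquitin ligases that mark the receptor for recycling, and Pex26, the membrane anchor of Pex6, had log2 fold changes of 0.07, 0.05 and 0.22, none called.

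Over the 36 genes, the livers of the diets did not overlap for 9 genes that were higher and 2 that were lower in ETOH-WT, or 30.6%, near the 29.1% of all genes tested (17.9% higher and 11.2% lower). The summed FPKM of the set ran from 5627 to 5775 in ETOH-WT livers, against 5011 to 5591.5 in PF-WT livers. These sums were not scaled to the library totals. ETOH-WT 1, with the largest sum of the set, also had the largest total (625003 FPKM, against 577297 in PF-WT 3). The sums therefore do not show a separation of the diets as shares of a library. PF-WT 3 had the largest of the PF-WT sums of the set. It was the highest PF-WT liver for 22 of the 36 genes, against 9 for PF-WT 1 and 5 for PF-WT 2. PF-WT 3 also had the largest total of the PF-WT libraries. The same count was not made over all genes tested, so it does not show a trait particular to the 36. Within ETOH-WT the highest liver was spread evenly, with 12, 13 and 11 genes for ETOH-WT 1, 2 and 3. The median SD of log2(FPKM + 1) over the genes was 0.123 in ETOH-WT and 0.104 in PF-WT livers. The largest spread in PF-WT livers belonged to Eci3 (0.607) and Crat (0.368).

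Leaving out livers in turn separated the called genes by how firmly they were called. Nudt7 kept its call in all 6 such fits and Crot in 5. Hsd17b4 and Acaa1a were called in 2 each, Eci2 in 1 and Pxmp4 in none, although the fold changes of all 6 genes kept their direction. With PF-WT 2 left out, the count of genes higher was 0 (background over all genes tested, 83 higher and 76 lower). It was 1 without ETOH-WT 1 (264 higher over all genes tested) and 1 without ETOH-WT 3 (114). It was 3 without ETOH-WT 2 (347), 3 without PF-WT 1 (281) and 3 without PF-WT 3 (281). With median-ratio scaling Crot alone was called higher (328 over all genes tested), with libraries scaled to the same sum 2 genes were (289), and with array weights 9 were (1327), whereas Nudt7 was the gene called lower in all of these.

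**Figure D3:**
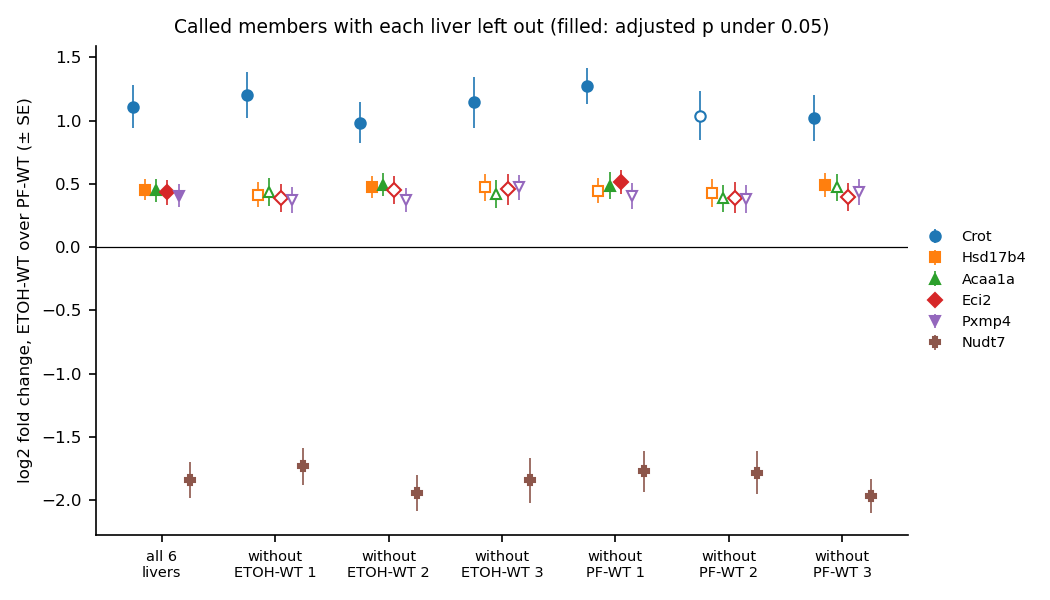
Log2 fold change, ETOH-WT over PF-WT, of log2(FPKM + 1) with its SE for the 6 called genes, with all 6 livers and with each liver left out. Filled symbols have an adjusted p under 0.05. Nudt7 lies between -1.96 and -1.73 and Crot between 0.98 and 1.27 when a liver is left out, with the other 4 between 0.37 and 0.51.

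Other genes of the organelle moved in both directions. Of 51 further peroxisomal genes, 49 were in the table and were tested, with 5 higher and 2 lower (14.3%, beside 6.64% of all genes) and a median log2 fold change of 0.01. The highest were Slc27a2, an acyl-CoA synthetase for very long chains and bile acids (695 ± 67.0 FPKM in ETOH-WT and 449 ± 54.0 FPKM in PF-WT livers, log2 fold change 0.63), Aldh3a2, a fatty aldehyde dehydrogenase (0.61), and Dhrs4, a carbonyl reductase (0.56). The called genes that were lower were Paox and Idh1. Paox, a peroxisomal polyamine oxidase, measured 10.5, 20.8 and 9.11 FPKM in ETOH-WT livers, against 35.2, 35.5 and 43.6 FPKM in PF-WT livers, with a log2 fold change of -1.51 (adjusted p = 0.0188). Idh1, the NADP-dependent isocitrate dehydrogenase of cytosol and peroxisomes, was at 200.3 ± 24.9 FPKM in ETOH-WT and 307 ± 24.7 FPKM in PF-WT livers (log2 fold change -0.62, adjusted p = 0.0228). The count higher was 0 without ETOH-WT 3 (114 over all genes tested) and 0 without PF-WT 2 (83). It was 1 without ETOH-WT 1 (264) and 3 without PF-WT 1 (281) or PF-WT 3 (281). The count lower was 0 without ETOH-WT 3 (76 over all genes tested) or PF-WT 2 (76). It was 1 without ETOH-WT 1 (185) or PF-WT 3 (265).

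Among genes outside the 36 that are known targets of PPARα, in mitochondria, the endoplasmic reticulum and the cytosol for the most part, 14 of 30 were higher and none was lower by limma (46.7%, beside 6.64% of all genes). At an unadjusted p under 0.05, 22 were higher and 0 lower, where 23.7% of all genes were under that p, and none was called lower in any alternative. The diets did not overlap for 21 that were higher and 1, Fabp1, that was lower (log2 fold change -0.31, adjusted p = 0.229), where 29.1% of all genes did not overlap. Fabp1, a fatty acid-binding protein of the cytosol, was named after its values were seen. The count higher was 3 without PF-WT 2 (83 over all genes tested) and 5 without ETOH-WT 3 (114). It was 7 without ETOH-WT 1 (264) and 8 without PF-WT 1 (281). The median log2 fold change of these targets was 0.58. The highest called were the fatty acid ω-hydroxylases Cyp4a14 (1.55; 1529 ± 199 FPKM in ETOH-WT and 529 ± 119 FPKM in PF-WT livers) and Cyp4a10 (1.49), and the mitochondrial acyl-CoA thioesterase Acot2 (1.29). Aldh3a2 and Acsl1 stand in both of these lists. The list was drawn up with earlier results of these data known, and its difference from the 36 genes was not tested. Ppara itself measured 51.4, 40.0 and 42.6 FPKM in ETOH-WT livers, against 54.0, 40.8 and 41.4 FPKM in PF-WT livers. The diets overlapped throughout (log2 fold change -0.02, adjusted p = 0.954). Of 13 nuclear receptors, cofactors and other regulators of such genes, 2 were higher and none was lower, where 6.64% of all genes were called. They were Pparg (log2 fold change 0.80, adjusted p = 0.0202) and Creb3l3, a hepatic partner of PPARα (0.63, adjusted p = 0.0151).

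**Figure D4:**
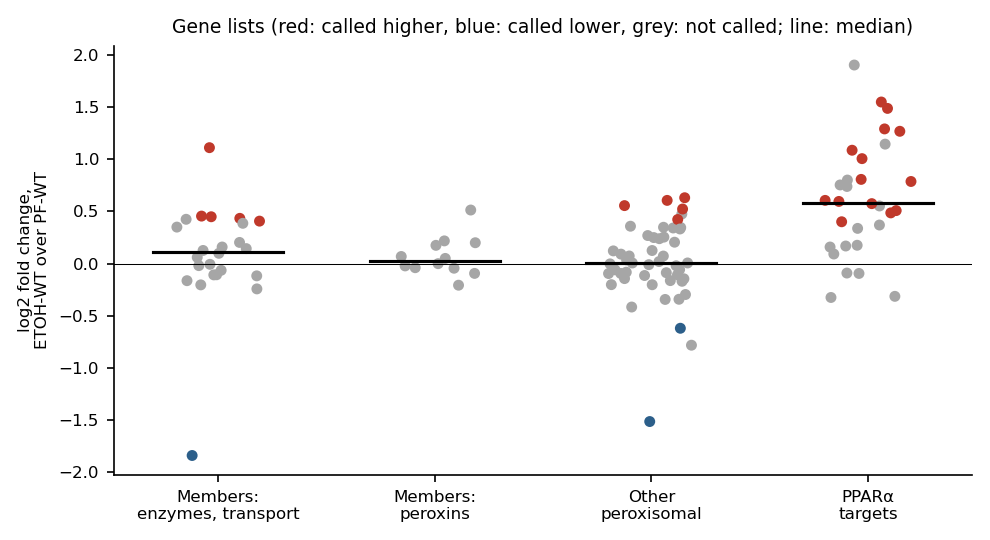
Log2 fold change, ETOH-WT over PF-WT, of log2(FPKM + 1) for each gene of the enzymes and membrane proteins (24), the peroxins (12), other peroxisomal genes (49) and PPARα targets (30). Red points were called higher, blue lower and grey not called, and lines give the medians. The median of the PPARα targets is 0.58, and that of the other peroxisomal genes is 0.01.

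Each liver expressed the hepatocyte markers, and no adipocyte marker was in the table. The summed FPKM of 8 hepatocyte markers ran from 63794 to 69319 in ETOH-WT livers, against 72585 to 81646 in PF-WT livers, with 1 of 8 called (Tat, lower). Most of this sum was Alb (46953 to 52847 FPKM in ETOH-WT and 53968 to 60199 FPKM in PF-WT livers). Of the 8, 2 had a positive log2 fold change. The 5 cholangiocyte markers in the table summed to 21.7 to 29.2 FPKM in ETOH-WT livers, against 31.8 to 38.8 FPKM in PF-WT livers, with none of 3 tested called. Most of that sum was Spp1 (20.1 to 27.2 FPKM in ETOH-WT and 29.4 to 35.6 FPKM in PF-WT livers). Of 7 pericentral markers Slc1a2 was higher and Rgn lower, and of 7 periportal markers Hsd17b13 was higher and Sds lower. Sums of Kupffer cell, endothelial, stellate cell, erythroid, lymphocyte and neutrophil markers overlapped between the diets, with none called. The part of these markers in the values above was not tested, and in RNA of whole liver fewer cells of a type and less RNA per cell cannot be told apart. The sums of all FPKM ran from 567808 to 625003, with ETOH-WT 1 the highest. ETOH-WT 1 listed no gene at 0, whereas the other 5 libraries listed 86 to 163, and the correlation of log2 values was 0.984 to 0.992 within a diet and 0.973 to 0.979 between diets.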

How the data were processed

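Total RNA of 6 livers was sequenced as paired-end libraries. The authors deposited 1 table of values taken here as FPKM, with 1 column for each library and 0 other columns of sample values. The unit was inferred from the values, and no source used here names the program that made the FPKM. The study's methods name STAR, GRCm38 and HTSeq-count, whereas TopHat2 2.0.11, cutadapt, HTSeq (0.11.2 and 1.6.3) and mm10 appear in the submitters' processing notes. The table holds no read counts, and a search for steps of whole reads in its low values scored above shuffled values in 4 of 6 libraries and not in ETOH-WT 1 and PF-WT 3. No depth was taken from it, and the depth is treated as unknown. Whether counting used strand is not stated.

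Values as deposited were transformed to log2(FPKM + 1), and the 11346 rows that averaged 0.5 FPKM or more were fitted with limma 3.58.1 under R 4.3.3. The model had a term for diet alone, the eBayes step used a trend of variance with level, and there were 4 residual and 4 prior degrees of freedom. The tests were two-sided, with Benjamini-Hochberg adjustment over all rows tested and a threshold of 0.05. With 3 livers in each diet an exact permutation test stops at p = 0.1 and was left out. The codes in the labels are shared within a diet, so a batch that followed them cannot be told apart from diet. Group means and ratios were computed on FPKM without a pseudocount. The table's coordinates had the chromosome and both ends of GENCODE vM21 for 80.0% of its rows and 29 of the 36 genes, and that annotation gave the exonic overlaps and the shared 51-base words. Python 3.11.15 with pandas 2.3.3, numpy 2.4.6 and matplotlib 3.10.9 was used for sequences and figures.

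The genes and lists were chosen with earlier results of these data known. Values by liver were given for every called gene, the 6 with the lowest p among those not called, the near copies, and Ehhadh and Pex11a. From each other list up to 3 called genes in each direction were named, plus Ppara. Alternatives changed the pseudocount, the filter, the scaling, the array weights, the variance trend, the replicate block and the livers included.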

Additional observations from a re-analysis of the deposited data

How the results depend on the processing

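In 16 alternative analyses (pseudocounts of 0.1 and 2, other filters on low values, 3 scalings, array weights, no variance trend, a replicate block, and each liver left out), Nudt7 was the only gene of the set called lower, in every one, and the 6 called genes kept their direction. The count of the 36 genes higher, 5 as reported, was 1 with median-ratio scaling, 2 with libraries scaled to the same sum, 9 with array weights, 1 with the replicate block, and 0 to 3 with a liver left out, the lowest without PF-WT 2. The other peroxisomal genes higher (5) became 3, 2, 11 and 2 in the same order, 2 with quantile normalization and 0 to 4 with a liver left out, with 0 both without ETOH-WT 3 and without PF-WT 2. Those lower (2) became 6 with array weights and 0 to 3 with a liver left out. The PPARα targets higher (14) were 3 to 12 with a liver left out, the lowest without PF-WT 2, and none was lower in any alternative. Over all genes tested, 450 were higher and 303 lower as reported, 1327 and 945 with array weights, 253 and 201 with the replicate block, and 289 were higher with libraries scaled to the same sum. Leaving out a liver gave 83 to 347 higher and 76 to 300 lower, with the fewest higher without PF-WT 2 and the fewest lower without PF-WT 2 and without ETOH-WT 3. Scaling moved the share of all calls that were higher, which was 59.8% as reported, 49.8% with median-ratio scaling and 45.7% with libraries scaled to the same sum. The median log2 fold change of the 36 genes with a liver left out was 0.04 to 0.10. Deviations of same-numbered livers from their diet means had correlations of -0.0341 to -0.0105, inside the range of differently numbered livers (-0.0691 to 0.0881). With 3 livers in each diet these correlations cannot tell whether the replicate numbers pair the livers. Results for single genes were followed for the 36 genes, Ppara, and those genes of the other lists that were called as reported. Under these alternatives, 811 of these results kept their side of the threshold, 124 lost a call and 8 gained one. Apart from Ppara, the genes from the other lists were picked for being called, so they could lose a call but not gain one. With 3 livers in each diet and depth unknown, small differences in scarce genes such as Eci3, Agps and Pex10 were not resolvable.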
